A study of Bos taurus with 81 samples.

Results

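The change in H3K4me3 and H3K27ac between cattle embryos of 4 cells (4C) and embryos of 8 cells cultured with the transcription inhibitor α-amanitin (8A) was followed in 8 peak lists, 2 per mark and group, out of 81 in the series. The 29 autosomes were divided into 2487842 bins of 1 kb, and a bin was called marked in a library where peaks covered at least 50% of it. A bin was called kept where it was marked in both 4C and both 8A libraries, lost where it was marked in both 4C libraries and in neither 8A library, and gained where the reverse held. Of all bins, 137703 were marked by H3K4me3 and 142033 by H3K27ac in at least 1 of the 4 libraries of that mark. For H3K4me3, 35416 bins were kept, 21888 lost and 452 gained. For H3K27ac, 12646 were kept, 679 lost and 35134 gained. Every other marked bin was called mixed, because the 2 libraries of a group disagreed on it.

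The libraries were made by CUT&Tag, in which an antibody against a histone mark directs a transposase that cuts and tags the DNA beside it. Embryos were produced in vitro from slaughterhouse ovaries. 4C embryos were collected at 44 h after insemination without the inhibitor, and 8A embryos at 56 h after culture with α-amanitin at 50 μg/ml. Also profiled without inhibitor, and used here for comparison, were germinal vesicle oocytes before maturation (GV), 2-cell embryos at 32 h (2C) and untreated 8-cell embryos at 56 h (8C). Later stages without inhibitor were morulae at 122 h (MO) and the separated parts of blastocysts, inner cell mass (ICM) and trophectoderm (TE). A library held 500 oocytes or 1000 to 1500 blastomeres. The labels do not say when the inhibitor was added or whether the 2 libraries of a group came from separate cultures, so the spread between them may be technical. 4C and 8A differed in age as well as in the inhibitor, so a 4C to 8A difference alone does not separate time from treatment, and 8C is therefore given beside it.

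H3K4me3, trimethylation of lysine 4 on histone H3, is found at promoters and in oocytes also over broad domains away from them. H3K27ac, acetylation of lysine 27 on the same histone, is found at active promoters and enhancers. α-Amanitin blocks RNA polymerase II, so that embryos live on maternal stores, and in cattle the main wave of embryonic transcription begins at about the 8-cell stage.

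No read totals came with them, so the depth of each library is unknown, and a long list and a widely spread mark cannot be told apart. The 8C libraries of H3K4me3 stood apart from each other, covering 68.6 Mb and 112 Mb of the autosomes, so the 8C values of that mark are given per library where the result rests on them. No gene names came with the lists, so the labelled stages were not checked against marker genes and regions are given by position on the ARS-UCD1.2 build.

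The autosomal length under H3K4me3 peaks was lower in 8A than in 4C, while that under H3K27ac peaks was higher. H3K4me3 covered 94.7 Mb and 110 Mb in the 4C libraries and 60.4 Mb and 52.2 Mb in the 8A libraries. Neither 8A library reached the lower 4C library. The means were 102 ± 10.8 Mb (SD, n = 2) in 4C and 56.3 ± 5.79 Mb (SD, n = 2) in 8A. The log2 ratio of 8A to 4C was -0.86 (SE 0.15, exact two-sided permutation p = 0.333, adjusted p = 0.333). H3K27ac covered 43.4 Mb and 44.0 Mb in 4C and 100.7 Mb and 97.7 Mb in 8A. Both 8A libraries lay far above both 4C libraries. The means were 43.7 ± 0.4002 Mb (SD, n = 2) and 99.2 ± 2.11 Mb (SD, n = 2), with a log2 ratio of 1.18 (SE 0.0236, exact two-sided permutation p = 0.333, adjusted p = 0.333). With 2 libraries against 2 the exact test cannot give a p below 0.333, so neither mark alone could pass. The log2 ratio of H3K27ac exceeded that of H3K4me3 by 2.04, and in each mark both 8A libraries lay on the same side of both 4C libraries. An exact two-sided permutation test within each mark gave p = 0.0556 for that difference, the smallest that its 36 arrangements allow.

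**Figure D1:**
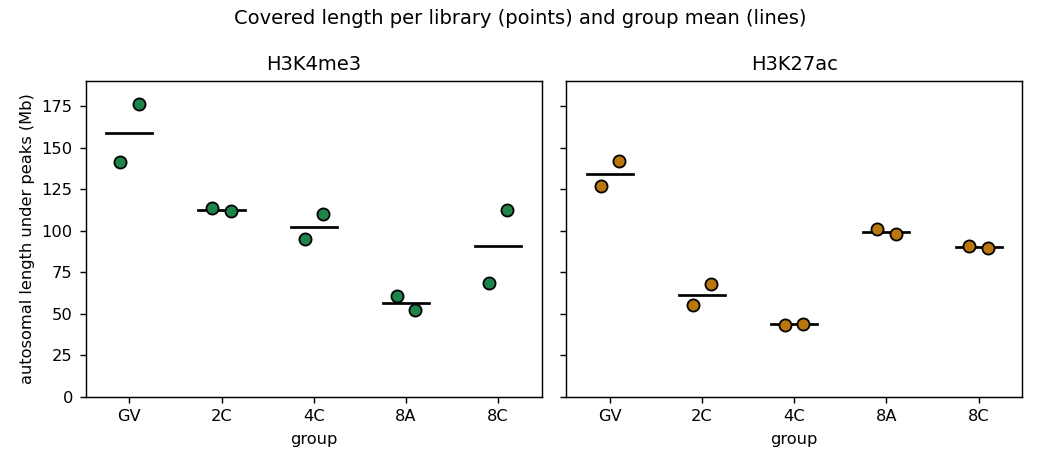
Autosomal length under peaks (vertical axis, Mb) in each library (points, 2 per group) with the group mean (lines), for H3K4me3 (left) and H3K27ac (right). The 8A libraries lie at 60.4 and 52.2 Mb for H3K4me3, below the 4C libraries, and at 100.7 and 97.7 Mb for H3K27ac, above them.

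Across the other stages, H3K4me3 covered 141 Mb and 176 Mb in GV and 114 Mb and 112 Mb in 2C, so the 8A libraries had the lowest coverage of these 5 groups. H3K27ac covered 127 Mb and 142 Mb in GV and 55.0 Mb and 67.8 Mb in 2C, with its lowest values in 4C. The untreated 8C libraries covered 90.5 Mb and 89.7 Mb with H3K27ac, less than either 8A library. The number of autosomal H3K4me3 peaks was 112777 and 123857 in 4C against 83244 and 79829 in 8A, with median widths of 650 bp in both 4C libraries and of 550 bp and 500 bp in 8A. The number of H3K27ac peaks was 88062 and 84519 in 4C against 145582 and 107635 in 8A, with median widths of 450 bp in both 4C libraries and of 550 bp and 750 bp in 8A. The authors' score per peak, whose meaning is not given, had a median of 37 and 41 in the 4C and of 27 and 25 in the 8A lists of H3K4me3. In H3K27ac the median score was 33 and 35 in 4C and 47 and 48 in 8A. The score thus moved with covered length in both marks, and its part in the result was not tested.

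In the lists as deposited, marked H3K4me3 bins on which the libraries of each group agreed were almost all kept or lost. Mixed bins numbered 79947, or 58.1% of the bins marked by H3K4me3 in any 4C or 8A library. The kept bins made up 1.42% of all autosomal bins, the lost bins 0.88% and the gained bins 0.0182%. Of the 75622 bins marked in both 4C libraries, 46.8% were kept and 28.9% were lost, and the rest were marked in a single 8A library. The 8A signal lay mostly inside the 4C signal, since 92.3% of the bins marked in both 8A libraries were kept bins and 1.18% were gained. Taken by library pair, the bins marked in 4C but not in 8A numbered 45734 to 67145, and those marked in 8A but not in 4C numbered 4039 to 8580. Loss exceeded gain in each of the 4 pairs. The replicates disagreed on 57060 bins in 4C and on 31304 in 8A, more than the lost bins in each case, so the class counts depend on requiring agreement. With a single library standing for its group, the lost bins numbered 51615 without 4C replicate 1, 38302 without 4C replicate 2 and 33851 without 8A replicate 1. The gained bins numbered 1314 and 2092 without 4C replicate 1 or 2 and 2100 and 3373 without 8A replicate 1 or 2. When the lists were trimmed to the same 52.2 Mb by dropping their lowest scores, 27140 bins were kept, 4606 were lost and 3135 gained. Loss still exceeded gain at equal covered length, by a much smaller margin. In these trimmed lists 40047 bins were marked in both 4C libraries and 36519 in both 8A libraries.

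Lost H3K4me3 bins came from narrower, lower ranked peaks than kept bins. In the 4C libraries, the peaks that held lost bins had a median width of 850 bp and 950 bp and a median score percentile of 65.1 and 68.6 within their list. The peaks that held kept bins were 1700 bp and 1900 bp wide, with percentiles of 92.4 and 93.5. Of the 19667 runs of neighbouring lost bins, 90.1% were a single bin, and the longest was 5 kb. The kept bins formed 20923 runs, of which 834 were 5 kb or longer and the longest 28 kb. In 8A, 36.4% of the lost bins had no base under a peak and 38.4% lay next to a bin marked in 8A, so the lost bins included both bins empty in 8A and bins beside remaining signal. Among bins unmarked in all 4 libraries, 1.94% lay next to a bin marked in 8A. Of the 452 gained bins, 77.9% lay next to a bin marked in 4C, against 4.93% of the bins unmarked in all 4 libraries, and 5.75% had no base covered in 4C.

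**Figure D2:**
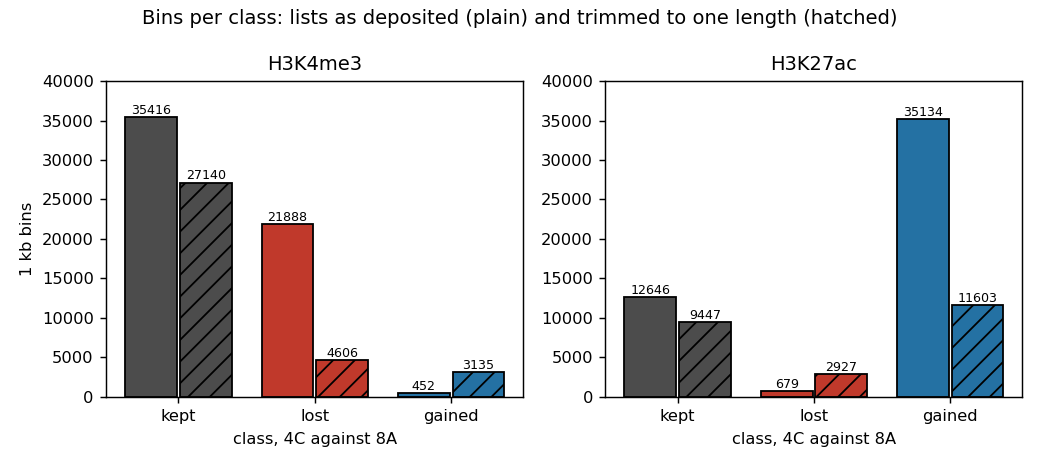
Number of 1 kb bins (vertical axis) that were kept, lost or gained between 4C and 8A for H3K4me3 (left) and H3K27ac (right), in the lists as deposited (plain bars) and trimmed to equal covered length (hatched bars). With trimmed lists, 4606 H3K4me3 bins were lost against 3135 gained, and 11603 H3K27ac bins were gained against 2927 lost.

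In the lists as deposited, most H3K4me3 bins lost in 8A were also marked in oocytes and 2C embryos, and part of them were marked in untreated 8C embryos. The lost bins were marked in 69.5% and 78.9% of cases in the GV libraries and in 73.9% and 71.6% in the 2C libraries. Over all autosomal bins, GV marked 5.82% and 7.47% and 2C marked 4.76% and 4.72%. In trimmed lists, where the GV lists were shortened most, the mean share of lost bins marked was 47.6% in GV, in place of 74.2%, and 56.8% in 2C, in place of 72.7%. In the lists as deposited, both GV and both 2C libraries marked 43.3% of the lost bins, and no GV or 2C library marked 4.81% of them. In 8C, the lost bins were marked in 27.4% of cases in replicate 1 and in 63.3% in replicate 2, against 2.76% and 4.72% over all bins. Both 8C libraries marked 24.8% of the lost bins, a single 8C library marked 41.2% and neither marked 34.1%. The share of lost bins present in 8C therefore depended on the library. Lost bins are drawn from the bins marked in both 4C libraries, so a share above that of all bins follows from their choice. The bins marked in both 4C libraries were marked in 78.7% and 85.3% of cases in GV and 88.3% and 87.0% in 2C. In 8C they were marked in 63.7% and 85.7% of cases. The lost bins lay below these shares in every library.

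Kept H3K4me3 bins had higher shares than lost bins in all libraries of these 3 stages. They were marked in 86.4% and 90.7% of cases in GV, in 97.3% and 96.6% in 2C and in 88.9% and 98.3% in 8C. Both 8C libraries marked 88.4% of the kept bins and neither marked 1.23%. The gained bins were marked in 39.8% and 54.9% of cases in GV, 55.3% and 56.6% in 2C and 51.1% and 78.8% in 8C. Of these bins 13.1% were free of the mark in all GV and 2C libraries. Of all autosomal bins, 91.5% were marked in neither GV library and 94.0% in neither 2C library. In trimmed lists, where 3135 bins were gained, the mean share marked was 22.5% in GV, 27.5% in 2C and 45.01% in 8C, in place of 47.3%, 56.0% and 64.9%. For scale, bins marked in both libraries of a group made up 4.79% of all autosomal bins in GV, 3.44% in 2C, 3.04% in 4C, 1.54% in 8A and 2.54% in 8C.

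The 4C to 8C comparison, which shares the 4C libraries, gave 47067 kept, 9698 lost and 6713 gained bins of H3K4me3 under the same rule. The 4C to 8A comparison gave 35416, 21888 and 452. The difference in lost bins depended on the 8C library. Of the 75622 bins marked in both 4C libraries, 27436 were unmarked in 8C replicate 1 and 10817 in 8C replicate 2, against 28243 in 8A replicate 1 and 33851 in 8A replicate 2. The bins marked in neither 4C library numbered 9519 and 27447 in the 8C libraries and 3373 and 2100 in the 8A libraries. 8C replicate 1 thus lay close to 8A replicate 1 in lost bins, whereas both 8C libraries had more newly marked bins than either 8A library. Among lost bins, those marked in both 8C libraries differed from those marked in neither at later stages. The former, 5420 bins, were marked by H3K4me3 in 33.5% and 34.9% of cases in MO. The latter, 7460 bins, were marked there in 2.91% and 3.35% of cases.

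In the lists as deposited, marked H3K27ac bins on which the libraries of each group agreed were almost all kept or gained. Mixed bins numbered 93574, or 65.9% of the bins marked by H3K27ac in any 4C or 8A library. Kept bins made up 0.508% of all autosomal bins, lost bins 0.0273% and gained bins 1.41%. Of the 14862 bins marked in both 4C libraries, 85.1% were kept and 4.57% were lost. Of the 66056 bins marked in both 8A libraries, 53.2% were gained and 19.1% were kept. By library pair, 70806 to 78378 bins were marked in 8A but not in 4C, and 7105 to 8897 in 4C but not in 8A. Gain exceeded loss in each of the 4 pairs. The replicates disagreed on 35585 bins in 4C and on 66379 in 8A. Without 8A replicate 1 or 2 the gained bins numbered 66727 and 59993, and without 4C replicate 1 or 2 the kept bins numbered 21943 and 21625. The lost bins numbered 5818 and 4459 without 4C replicate 1 or 2 and 1491 and 1404 without 8A replicate 1 or 2. In lists trimmed to 43.4 Mb, 9447 bins were kept, 11603 gained and 2927 lost, so gain exceeded loss at equal covered length as well. Equal length did not give equal numbers of marked bins, with 14799 marked in both 4C libraries and 30568 in both 8A libraries. The trimmed counts therefore do not separate the excess of gain from that difference.

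The bins that gained H3K27ac formed 28781 runs, of which 83.4% were a single bin, 96 were 5 kb or longer and the longest was 12 kb. In 4C, 40.5% of the gained bins had no base under a peak, 28.6% lay next to a marked bin and 42.3% lay more than 5 kb from one. Among bins unmarked in all 4 libraries, 2.3% lay next to a bin marked in 4C and 89.7% lay more than 5 kb from one. The gained bins thus lay nearer to the 4C signal than unmarked bins did, and most had at least 1 base covered in 4C. In the 8A lists, the peaks that held gained bins had median score percentiles of 80.1 and 74.6 and median widths of 900 bp and 1050 bp. The peaks that held kept bins had percentiles of 94.3 and 92.1 and widths of 1350 bp and 1500 bp. Kept H3K27ac peaks were also wider in 8A than in 4C, where their median widths were 750 bp and 800 bp.

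Part of the bins that gained H3K27ac carried it in GV, 2C or 8C, and part carried it in no library of these stages. Gained bins are drawn from the bins marked in both 8A libraries, so a share above that of all bins follows from their choice. They were marked in 33.8% and 37.4% of cases in GV, against 5.05% and 6.05% over all bins. In 2C they were marked in 25.9% and 30.1% of cases, against 2.34% and 2.91%. In 8C they were marked in 37.3% and 37.5% of cases, against 3.88% and 3.84%. No GV or 2C library marked 37.3% of the gained bins, which was 13100 bins, and no GV, 2C or 8C library marked 21.4%, which was 7502 bins. Of all autosomal bins, 93.0% were marked in neither GV library and 95.9% in neither 2C library. Both 8C libraries marked 29.4% of the gained bins, a single library 16.0% and neither 54.6%. More of the bins that gained H3K27ac under the inhibitor therefore lacked it in both untreated 8-cell libraries than carried it in both. This held over all bins too, of which 94.8% were marked in neither 8C library and 2.56% in both.

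Gained bins with and without H3K27ac in 8C differed in the rest of the series. The 10314 gained bins marked in both 8C libraries carried H3K27ac in 48.5% and 52.2% of cases in GV, 20.6% and 23.8% in 2C and 44.8% and 45.2% in MO. The 19185 gained bins marked in neither 8C library carried it in 25.3% and 28.9% of cases in GV, 29.7% and 34.7% in 2C and 12.7% and 11.9% in MO. The first set thus had the higher shares in GV and MO and the lower shares in 2C, with no overlap between the libraries. Of all bins, 5.05% and 6.05% were marked in GV, 2.34% and 2.91% in 2C and 4.54% and 4.74% in MO. Both sets lay above these shares in every library. These differences were not tested, since neighbouring bins are not independent.

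Kept H3K27ac bins were marked in 52.8% and 57.7% of cases in GV, 62.4% and 67.2% in 2C and 62.8% and 63.3% in 8C. The 679 lost bins were marked in 43.7% and 47.7% of cases in GV, 29.01% and 35.1% in 2C and 34.6% and 36.4% in 8C. In trimmed lists the mean share in GV was 29.3% of the kept, 15.5% of the lost and 22.4% of the gained bins, in place of 55.3%, 45.7% and 35.6%. That of the lost bins in 8C was 18.6%, in place of 35.5%, and it was 21.8% without 4C replicate 1. Bins marked by H3K27ac in both libraries of a group made up 4.08% of all autosomal bins in GV, 1.2% in 2C, 0.597% in 4C, 2.66% in 8A and 2.56% in 8C. The 4C to 8C comparison, with the same 4C libraries, gave 7627 kept, 4796 lost and 45679 gained bins of H3K27ac. Gain was large in both comparisons, and the lost bins of the 4C to 8A comparison were fewer.

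**Figure D3:**
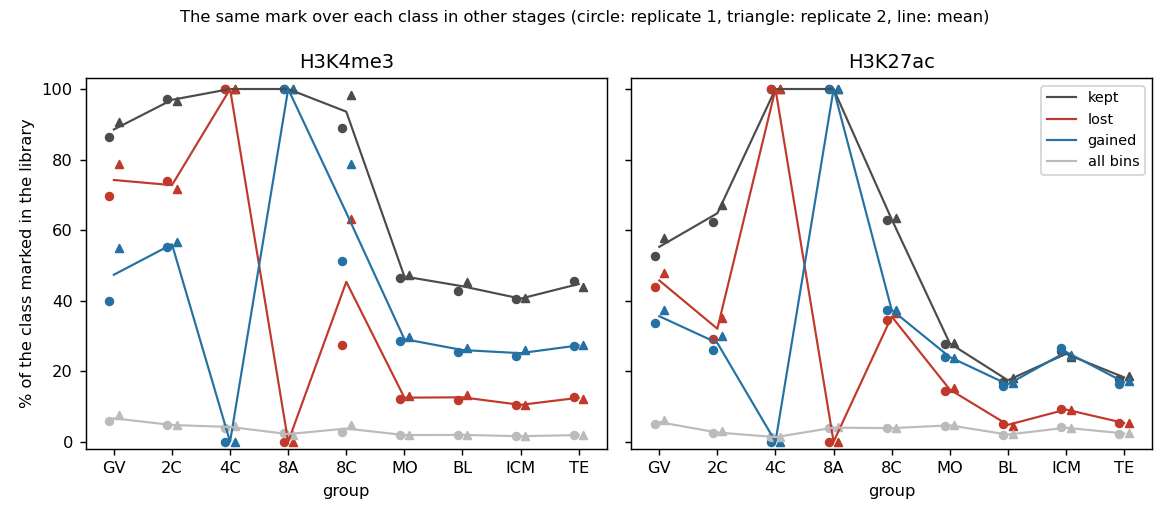
Percentage of the kept, lost and gained bins (vertical axis) marked by the same mark in each library of each group (circles and triangles, replicates 1 and 2) with the group mean (lines), for H3K4me3 (left) and H3K27ac (right). The 4C and 8A values are 0 or 100% by definition, and in 8C the lost H3K4me3 bins stand at 27.4% and 63.3% and the gained H3K27ac bins at 37.3% and 37.5%.

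Whole lists were compared by the Jaccard index. The Jaccard index is the length shared by 2 lists divided by the length under either. For H3K27ac it averaged 0.268 between 4C and 8A (0.261 to 0.276 over 4 pairs), 0.236 between 2C and 8A and 0.235 between 8A and 8C. It was 0.482 between the 8A replicates and 0.304 between the 4C replicates. For H3K4me3 it averaged 0.422 between 4C and 8A (0.389 to 0.453) and 0.435 between 8A and 8C (0.389 to 0.471), against 0.487 between the 8A replicates. A difference in list length limits the index, and for H3K27ac the lists differ far more in length between 4C and 8A than between 8A and 8C, so these values give no order of likeness.

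The overlap of the marks was higher in 8A than in 4C, measured from H3K4me3. In 4C, H3K27ac in both libraries lay on 13.3% of the bins marked by H3K4me3 in both libraries, which was 10026 bins. In 8A it lay on 61.8% of them, which was 23703 bins. The same share was 33.9% in GV, 23.2% in 2C and 34.0% in 8C, so 8A had the highest value of the 5 groups. Over the 4 library pairs of a group, the share ran from 18.4% to 20.2% in 4C, from 60.8% to 65.7% in 8A and from 30.1% to 40.4% in 8C, and these ranges did not overlap. Measured from H3K27ac, 4C had the highest of these 3 values, as 67.5% of its bins held H3K4me3 in 4C, 35.9% in 8A and 33.7% in 8C. Over the library pairs this share ran from 57.1% to 65.9% in 4C, from 31.6% to 37.2% in 8A and from 28% to 37.7% in 8C, so 8A and 8C overlapped. In lists trimmed to the same length within a mark, H3K27ac lay on 17.4% of the H3K4me3 bins in 4C, 41.9% in 8A and 29.2% in 8C, each over bins marked in both libraries. H3K4me3 then lay on 47.1% of the H3K27ac bins in 4C and on 50.1% in 8A. With trimmed lists the difference measured from H3K4me3 was smaller in the same direction, and that measured from H3K27ac turned its direction. The trimmed lists still held unequal numbers of H3K27ac bins, 14799 in both 4C libraries and 30568 in both 8A libraries. H3K4me3 bins then numbered 40047 in 4C and 36519 in 8A. The shares measured from H3K4me3 are therefore not free of the difference in H3K27ac bins.

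**Figure D4:**
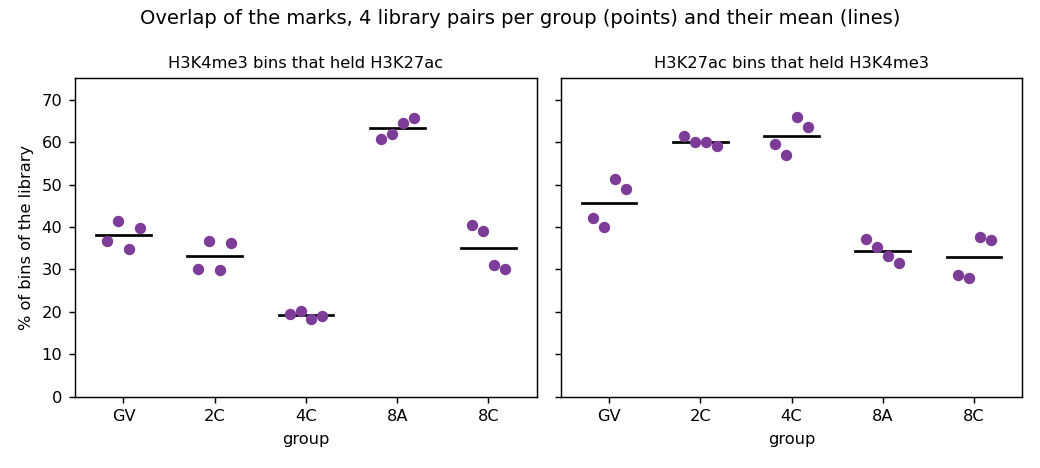
Percentage of the bins of an H3K4me3 library marked by H3K27ac (left) and of an H3K27ac library marked by H3K4me3 (right) in the same group, for the 4 library pairs of each group (points) and their mean (lines). The left panel shows 18.4% to 20.2% in 4C and 60.8% to 65.7% in 8A.

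Acetylation was gained on many of the H3K4me3 bins that were kept. Of the 35416 kept H3K4me3 bins, H3K27ac marked 28.9% and 28.2% in the 4C libraries, 72.9% and 73.8% in the 8A libraries and 39.5% and 37.9% in the 8C libraries. The 8A values were well above those of either untreated group. Bin by bin, 10109 kept H3K4me3 bins were gained for H3K27ac, which was 28.5% of the former and 28.8% of the latter. A further 6045 were kept for both marks. In contrast, 12814 gained H3K27ac bins, or 36.5%, carried no H3K4me3 in any 4C or 8A library. Of all autosomal bins, 94.5% carried none in these libraries. Gained H3K27ac bins thus made up 28.5% of the kept H3K4me3 bins and 0.545% of the bins without H3K4me3, against 1.41% of all bins. H3K4me3 marked the gained H3K27ac bins in 51.1% and 56.8% of cases in 4C, 40.0% and 35.6% in 8A and 45.8% and 62.5% in 8C, against 3.85% and 4.52% of all bins in 4C. Gain of acetylation lay on bins that already had H3K4me3 and, at a much lower rate, on bins without it.

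The lost H3K4me3 bins were also sorted by their H3K27ac class. Of the lost H3K4me3 bins, 2622 (12.0%) were gained, 1548 (7.07%) were kept and 88 (0.402%) were lost for H3K27ac. A further 9924 (45.3%) had no H3K27ac in any 4C or 8A library, against 94.3% of all autosomal bins. Gain of H3K27ac outnumbered loss over all autosomal bins too, at the 1.41% against 0.0273% given above, so the excess of gain is not particular to these bins. H3K27ac marked 16.2% and 18.2% of the lost H3K4me3 bins in 4C, 39.0% and 40.2% in 8A and 19.4% and 18.5% in 8C. Few bins gained both marks, namely 79. Followed from their 4C state, the 50997 bins with H3K4me3 in both libraries and H3K27ac in none became bins of both marks in 19.8% of cases in 8A and 13.6% in 8C. They kept H3K4me3 alone in 11.7% of cases in 8A and 36.5% in 8C, had H3K27ac alone in 5.14% and 0.373%, and had neither mark in 19.5% and 14.3%. In the remaining cases the replicates of a mark disagreed. Taken with a single H3K4me3 library, H3K4me3 alone was kept in 20.0% and 15.8% of cases in 8A and in 38.0% and 59.3% in 8C, and neither mark was left in 23.6% and 27.7% in 8A and in 37.1% and 15.8% in 8C. Of the 10026 bins with both marks in 4C, 60.3% had both in 8A and 45.9% in 8C, and 15.4% had H3K27ac alone in 8A against 1.48% in 8C. With a single H3K4me3 library the latter shares were 21.7% and 25.9% in 8A and 7.09% and 1.76% in 8C. H3K27ac without H3K4me3 thus had the higher share in 8A from both starting states, in lists with less H3K4me3 and more H3K27ac than those of 8C.

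The gained H3K27ac bins split by H3K4me3 class had different histories. On the 10109 that were kept for H3K4me3, H3K27ac was present in 38.0% and 44.8% of cases in 2C, 40.2% and 38.9% in 8C and 36.5% and 36.3% in MO. On the 12814 without H3K4me3, it was present in 12.5% and 13.3% of cases in 2C, 38.7% and 40.5% in 8C and 14.5% and 14.3% in MO. The shares in 8C overlapped between the sets, whereas the shares in 2C and MO were lower on the bins without H3K4me3.

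Regions were picked as the longest runs of each class. The 3 longest kept H3K4me3 runs and the 3 longest gained H3K27ac runs all lay in the last 2 Mb of their chromosomes. That part held 21.0% of the kept H3K4me3 and 9.58% of the gained H3K27ac bins, so these runs need not be typical of their class. The longest kept H3K4me3 run, chr29:50049001-50077000 (28 kb), was covered by H3K4me3 over 95.5% and 96.2% of its length in 4C, 94.8% and 92.0% in 8A and 94.1% and 99.6% in 8C. H3K27ac covered 37.9% and 33.4% of it in 4C, 83.2% and 85.4% in 8A and 12.7% and 9.46% in 8C, so acetylation there was high in 8A alone of these 3 groups. In 2C it covered 55.7% and 63.4%. The next kept run, chr6:116798001-116820000 (22 kb), showed the same order, with H3K27ac over 39.5% and 23.6% in 4C, 82.0% and 91.4% in 8A and 11.8% and 13.4% in 8C. Both regions had H3K4me3 over at most 5.91% of their length in MO.

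The longest gained H3K27ac run lay within the third kept H3K4me3 run, chr16:80388001-80410000 (22 kb). This run, chr16:80398001-80410000 (12 kb), had H3K27ac over 73.8% and 70.4% in 2C, 5.00% and 7.50% in 4C, 79.2% and 88.8% in 8A and 0% in both 8C libraries. H3K4me3 covered 95.8% and 95.4% of it in 4C, 97.5% and 92.1% in 8A and 87.1% and 92.9% in 8C. It was also the longest gained run without a marked bin in 8C. At chr5:119338001-119347000 (9 kb) H3K27ac covered 88.9% and 93.9% in 2C, 16.1% and 10.0% in 4C, 87.8% and 95.0% in 8A and 0% and 11.7% in 8C. In these 2 regions acetylation was high in 2C and 8A and low in GV, 4C and 8C. The third, chr20:70780001-70789000 (9 kb), had little H3K27ac in 2C, with 15.0% and 15.6%, then 6.67% and 3.33% in 4C, 80.6% and 90% in 8A and 44.4% and 26.7% in 8C.

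The longest runs gained in 8A and also marked in both 8C libraries all lay on chromosome 18. The first, chr18:63211001-63218000 (7 kb), had H3K27ac over 19.3% and 21.4% in 4C, 85.7% and 90% in 8A and 95.7% and 92.1% in 8C, under H3K4me3 of 76.4% and 82.1% in 4C. The second was chr18:55375001-55381000 (6 kb), with H3K27ac over 12.5% and 10.0% in 4C, 80.0% and 89.2% in 8A and 97.5% and 96.7% in 8C. The third, chr18:60126001-60132000 (6 kb), had no H3K4me3 in 4C and H3K4me3 over 61.7% and 60.0% in 8C, against 11.7% and 0% in 8A. H3K27ac covered 11.7% and 10.0% of it in 4C, 84.2% and 86.7% in 8A and 87.5% in both 8C libraries. There the acetylation of 8C was present in 8A and the H3K4me3 was largely absent.

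**Figure D5:**
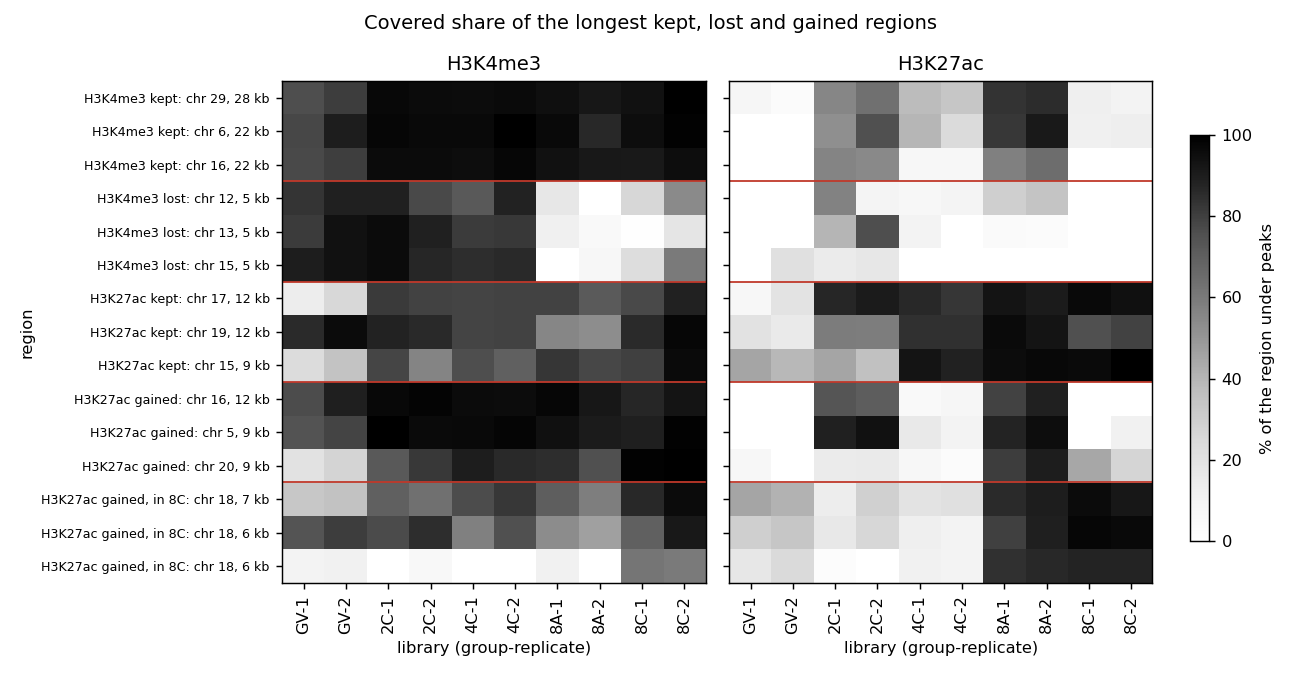
Share of each region under peaks (shading, 0 to 100%) for H3K4me3 (left) and H3K27ac (right) in the 2 libraries of GV, 2C, 4C, 8A and 8C, for the 3 longest regions of 5 kinds (rows, named by chromosome and length, kinds parted by lines). The 12 kb region on chromosome 16 shows H3K27ac over 79.2% and 88.8% in 8A and none in 8C.

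The longest lost H3K4me3 runs were 5 kb each. At chr12:84581001-84586000 H3K4me3 covered 72.0% and 88.0% in 4C, 17.0% and 0% in 8A and 26.0% and 54.0% in 8C. At chr13:54689001-54694000 it covered 81.0% and 82.0% in 4C, 12.0% and 5.00% in 8A and 1% and 18% in 8C, and at chr15:56522001-56527000 85.0% and 86.0%, 0% and 7%, and 23.0% and 60.0%. The loss was thus shared with both 8C libraries at the chromosome 13 region, while in the other 2 regions 8C replicate 2 kept more than 50%. The longest run lost in 8A but marked in both 8C libraries was chr4:106243001-106247000 (4 kb), with 77.5% and 83.8% in 4C, 30.0% and 18.8% in 8A and 72.5% and 95.0% in 8C. In MO both marks covered all of it.

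Kept H3K27ac regions were led by chr17:71000001-71012000 and chr19:12804001-12816000, each 12 kb. At the first, H3K27ac covered 87.1% and 90.4% in 2C, 86.7% and 82.5% in 4C, 92.9% and 90.4% in 8A and 96.7% and 94.2% in 8C. The longest lost H3K27ac run, chr26:22308001-22311000 (3 kb), was covered over 85.0% and 70.0% in 4C, 31.7% and 0% in 8A and 61.7% and 75% in 8C. The only gained H3K4me3 run longer than 1 bin was chr21:69272001-69274000 (2 kb), with no coverage in either 4C or 8C library and 60.0% and 55.0% in 8A. It was not particular to 8A, as H3K4me3 covered 27.5% and 12.5% of it in GV and 55.0% and 42.5% in 2C. Later values were 47.5% and 35.0% in MO, 30.0% and 25.0% in ICM and 70.0% and 67.5% in TE.

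The classes were spread over all 29 autosomes. Lost bins made up from 20.0% (chromosome 6) to 38.0% (chromosome 28) of the H3K4me3 bins marked in both 4C libraries, with a median of 29.4%. Gained bins made up from 40.8% (chromosome 28) to 57.1% (chromosome 5) of the H3K27ac bins marked in both 8A libraries. The last 2 Mb of the chromosomes held 2.33% of all bins but 21.0% of the kept and 7.42% of the lost H3K4me3 bins. In that part 14.1% of the H3K4me3 bins of both 4C libraries were lost, against 31.6% in the rest. H3K27ac was also denser there, with 9.25% of its kept and 9.58% of its gained bins.

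Repressive marks lay on the H3K4me3 classes more than on the H3K27ac classes. On kept H3K4me3 bins, H3K27me3 was found in 15.5% and 14.1% of cases in 4C, 21.4% and 21.7% in 8A and 17.3% and 16.7% in 8C. H3K9me3 was found on 15.8% and 16.0% of them in 4C, 22.5% and 22.9% in 8A and 18.1% and 16.3% in 8C. On lost H3K4me3 bins, H3K27me3 was found in 18.01% and 18.5% and H3K9me3 in 20.4% and 20.1% of cases in 8A. On gained H3K27ac bins in 8A, these shares were 8.27% and 8.44% for H3K27me3 and 9.66% and 10.1% for H3K9me3. Over all bins in 8A they were 5.82% and 6.14% and 7.28% and 7.20%. The repressive lists have coarser peak edges, with a step of 200 bp, and longer peaks than those of the active marks.

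At later stages the kept bins carried their mark more than the lost bins. In ICM, 40.3% and 40.8% of the kept and 10.4% and 10.5% of the lost H3K4me3 bins were marked, against 1.56% and 1.59% of all bins. In TE these were 45.7% and 43.7% of the kept and 12.7% and 12.2% of the lost bins. For H3K27ac in ICM, 25.8% and 24.0% of the kept, 26.5% and 24.5% of the gained and 9.28% and 8.98% of the lost bins were marked, against 4.11% and 3.83% of all bins. The shares of kept and gained H3K27ac bins thus overlapped in ICM, although kept bins had the higher shares in GV, 2C and 8C.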

How the data were processed

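CUT&Tag peak lists of H3K4me3 and H3K27ac were analysed, with H3K27me3 and H3K9me3 of 4C, 8A and 8C as further readouts. Per the submitters' processing notes, the build was ARS-UCD1.2, and the tools named are SICER, SAMtools 1.9, Picard 2.26.10, BWA 0.7.9a, cutadapt 1.8.3 and Trim Galore 0.4.0. The lists are named for epic2, so which caller made them was not settled. For the cutoff, the control and the read filters, no setting is given in the sources used here. The authors deposited 1 list per library, with a score per peak whose meaning is not stated. It served only to rank peaks within a list and to trim lists. Depth is unknown.

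Peak edges of the active marks lie on a grid of 50 bp. Groups and replicate numbers came from the titles. The members, classes and region rule were chosen with earlier results of these data known. No p-value was computed over bins, since bins are not replicates. Covered length was compared with exact permutation tests over libraries, with Benjamini-Hochberg adjustment over the 2 marks. Named regions are the 3 longest runs of each class, and of the H3K27ac gained and H3K4me3 lost runs marked in both or in no 8C library, ties in chromosome order. Alternatives were other bin sizes and coverage minimums, trimmed, stricter or joined lists, X included, each library left out and a replicate block. The labels do not say whether the replicate numbers pair the samples, and the main tests did not pair them. ATAC lists, peaks on unplaced scaffolds and gene annotation were not used here, and the code was tested on simulated lists. Computations used Python 3.11.15, NumPy 2.4.6, pandas 2.3.3 and SciPy 1.17.1.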

Additional observations from a re-analysis of the deposited data

Results flagged for a closer look

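H3K27ac outside the autosomes, which no comparison above used, was higher in 8A than in 4C. On X, H3K27ac peaks covered 1.45 Mb and 1.38 Mb in the 8A libraries, a mean of 1.41 Mb, against 0.549 Mb and 0.551 Mb in 4C. The untreated 8C libraries covered 1.68 Mb and 1.31 Mb of X, on either side of the 8A values. On unplaced scaffolds H3K27ac peaks covered 1.62 Mb and 1.55 Mb in 8A, a mean of 1.58 Mb, against 1.19 Mb and 1.21 Mb in 4C. The 8C libraries covered 0.961 Mb and 0.926 Mb of the scaffolds, below both other groups.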

How the results depend on the processing

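The log2 ratios of covered length kept their direction in every setting that gave one. Leaving out each library gave -0.97 to -0.75 for H3K4me3 and 1.16 to 1.2 for H3K27ac. Changed bin sizes and coverage minimums do not touch covered length, and trimming sets it, so none gave a ratio. A replicate block left the ratios at -0.86 and 1.18, with an exact p of 0.5, the smallest that 2 pairs allow. Deviations of libraries with the same replicate number correlated at 0.00883 for H3K4me3 and -0.00484 for H3K27ac over bins. These values cannot tell whether the replicate numbers pair the samples by culture or batch.

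Bin counts moved with the definition of a bin, which changes how many bins can qualify. For H3K4me3, a 25% minimum gave 61624 kept, 29563 lost and 837 gained bins. A 100% minimum gave 3624 kept, 5224 lost and 242 gained. Bins of 500 bp gave 75696 kept, 42450 lost and 1501 gained, and bins of 5 kb gave 3501, 2944 and 10. For H3K27ac, a 25% minimum gave 37054 kept, 3390 lost and 41710 gained bins. A 100% minimum gave 337 kept, 9 lost and 6338 gained. Bins of 500 bp gave 36728 kept, 3434 lost and 62666 gained, and bins of 5 kb gave 400, 12 and 4621. Trimmed lists gave 4606 lost and 3135 gained H3K4me3 bins and 2927 lost and 11603 gained H3K27ac bins. Joining peaks at most 1 kb apart gave 1020 lost H3K27ac bins. Leaving out each library gave 28243 to 51615 lost and 1314 to 3373 gained H3K4me3 bins. For H3K27ac it gave 13371 to 21943 kept, 1404 to 5818 lost and 44113 to 66727 gained bins.

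The share of gained H3K27ac bins marked in 8C, averaged over its libraries, was 37.4%. It was 32.9% at a 25% and 39.5% at a 100% minimum, 34.8% in 500 bp and 36.2% in 5 kb bins, 34.5% trimmed, 34.8% with peaks at or above the median score, 35.0% joined and 29.9% to 40.3% with a library left out. The share of kept H3K4me3 bins with H3K27ac in 8A, 73.4%, became 75.4% at a 25% and 58.9% at a 100% minimum, 58.9% in 5 kb bins, 59.8% trimmed, 70.5% at the stricter score, 72.3% joined and 67.6% to 73.8% with a library left out. The share of gained H3K27ac bins with H3K4me3 in 4C, 53.9%, was 42.2% to 56.8% with a library left out. The share of kept H3K4me3 bins with H3K27ac in 4C, 28.5%, was 8.47% at a 100% minimum and 8.24% in 5 kb bins, and that of lost bins, 17.2%, was 28.5% at a 25% and 3.21% at a 100% minimum and 4.13% in 5 kb bins. In 5 kb bins the share of kept bins in 8C was 21.8% in place of 38.7%. The share of gained H3K27ac bins marked in 2C, 27.99%, was 18.5% at a 100% minimum. The cause of these shifts was not tested. Unknown depth limits each count.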
